A study of Mus musculus with 2 samples.

Results

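Molecular chaperones of the heat shock protein families HSP90, HSP70, HSP110, HSP60 and HSP10 and their DnaJ (J domain) co-chaperones were examined in old long-term hematopoietic stem cells (LT-HSCs). Every array probe whose gene name began with *Hsp90*, *Hspa*, *Hspd*, *Hspe*, *Hsph*, *Dnaja*, *Dnajb* or *Dnajc* was taken. That gave 101 probes for 63 genes among the 22553 genes named on the array. LT-HSCs were sorted from the bone marrow of 2-year-old C57BL/6J mice and their RNA was hybridized to Agilent mouse expression arrays with the dye Cy3, 1 array for each of the 2 genotypes. The mice labelled p38KO (*p38α*Δ/Δ) were CAG-CreERT2:*p38α* flox/flox animals given tamoxifen (TAM) at about 1 year of age (50–60 weeks) and analysed 1 year later. The mice labelled wild-type (*p38α*+/+) were Cre(−) *p38α* fl/fl animals of the same age that were also injected with TAM, so both groups carried floxed alleles and had received TAM. The CAG promoter is active in most tissues, so deletion was not limited to HSCs. The sorted cells are labelled CD150+CD48-Flt3-CD34- LSK (lineage-negative, Sca-1+, c-Kit+), the study's methods add CD41- to this gate, and the number of mice behind each array is not given in the sources used here.

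HSP70 proteins bind unfolded stretches of other proteins in a cycle driven by ATP. J proteins deliver the clients and start ATP hydrolysis through their J domain, and nucleotide exchange factors, including the HSP110 proteins, reopen the cycle. HSP90 matures kinases and hormone receptors after HSP70, and HSP60 with its lid HSP10 folds proteins inside mitochondria. Cytosolic chaperone genes are known targets of heat shock factor 1 (HSF1), whereas their counterparts in the endoplasmic reticulum (ER) respond to the unfolded protein response. HSCs are known to make protein slowly and to depend on its correct folding.

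Levels below are log2 signals relative to each array's own 75th percentile, from the brightest probe of a gene, and differences are the *p38α*Δ/Δ-labelled array minus the *p38α*+/+ array. With 1 array per group there was no spread between mice, no test was possible, and each difference compares these 2 arrays. The only error at hand was that of repeated spots on an array, with a median standard deviation (SD) of 0.095 on the *p38α*+/+ array (283 probes with at least 5 spots) and 0.101 on the *p38α*Δ/Δ-labelled array (290 probes). A difference between single spots thus had an SD of 0.14, and differences beyond 0.28, that is 2 spot SDs, are counted below as larger than spot error. On the arrays 67.9% and 69.0% of probes were well above background. *Mapk14*, which encodes p38α, had levels of 2.34 and 2.31 by its brighter probe and of 2.08 and 2.03 by the other. The targeted transcript was thus not lower on the *p38α*Δ/Δ-labelled array, and whether either probe lies in the deleted part was not determined, so all directions given here rest on the labels.

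Of the HSC identity genes, 10 of 10 listed were measured well above background on each array. The summed linear level of this list was 155.3 times the 75th percentile signal on the *p38α*+/+ array and 125.6 times on the other, with 9 of 10 genes below 0, 6 of them by over 2 spot SDs, and a median difference of -0.59. Of all genes measured on both arrays, 53.2% lay below 0 and 30.5% were lower by over 2 spot SDs. The list median was -0.22 when the probes of a gene were averaged and -0.36 with another background correction (normexp). *Mecom*, a transcription factor of HSCs, had the largest decrease (0.46 and -0.98). Myeloid genes were detected on both arrays for 10 of 10 listed, with summed levels of 8.28 and 23.0 and 7 of 10 higher by a median over the list of 1.1, from *Elane* (-0.15 and -1.57) to *Ltf* (-3.0 and -0.77). These 7 were higher by over 2 spot SDs, against 26.3% of all genes measured on both arrays, and the other 3 were lower by over 2 spot SDs. The 4 of 6 B and plasma cell genes detected on both arrays summed to 2.37 and 17.0, led by *Jchain* (0.18 and 3.93), the joining chain of secreted antibody. The red cell gene *Hbb-b1* and the T cell genes *Cd3d* and *Cd3g* were not well above background on either array. Nor were the endothelial and stromal genes *Cdh5* and *Col1a1*. Of the same lists, however, 4 of 6 red cell genes and 2 of 5 T and NK cell genes were measured on both arrays. So were 3 of 5 endothelial and stromal genes. Among them were *Hba-a1* (-0.54 and -1.11), *Cd3e* (-0.35 and 0.66), *Nkg7* (3.54 and 3.86) and *Cxcl12* (-1.59 and -1.79). The part of such cells in the chaperone differences was not tested. In these bulk samples fewer cells of a type and less RNA per cell cannot be told apart.

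Of the 63 chaperone genes, 58 passed the background limit on 1 array or more and 56 on both. At least 2-fold lower levels on the *p38α*Δ/Δ-labelled array were seen for 4 of the 58 (6.9%), against 6.71% of the 17190 genes measured. *Dnajb9*, *Hspa1l*, *Dnajb2* and *Hspa1a* were these 4. At least 2-fold higher was *Dnajc16* alone (1.72%), against 4.08% of all genes. The share past 2-fold lower was thus close to that of the array as a whole. Smaller differences leaned to the lower side: 41 of 58 members (70.7%) lay below 0, against 52.4% of all genes, and the median was -0.22 against -0.03. Beyond 2 spot SDs, 25 members (43.1%) were lower, against 31.5% of all genes, and 6 (10.3%) were higher, against 28.0%. Both the 41 and the 25 include *Dnajb3* and *Dnajc28*, measured on the *p38α*+/+ array only. Their differences of -0.34 and -0.31 are bounds set by the background limit. Without them, 39 of 56 members (69.6%) lay below 0, against 53.2% of all genes measured on both arrays. Lower by over 2 spot SDs were 23 (41.1%), against 30.5%, and 6 (10.7%) were higher, against 26.3%. The 23 include *Dnaja1*, *Dnajc10* and *Hspa13*, and the 6 include *Hspa12b*. Each of these has another probe on the other side of 0 by over 2 spot SDs. The members share 2 hybridizations and are not replicates of a condition.

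**Figure D1:**
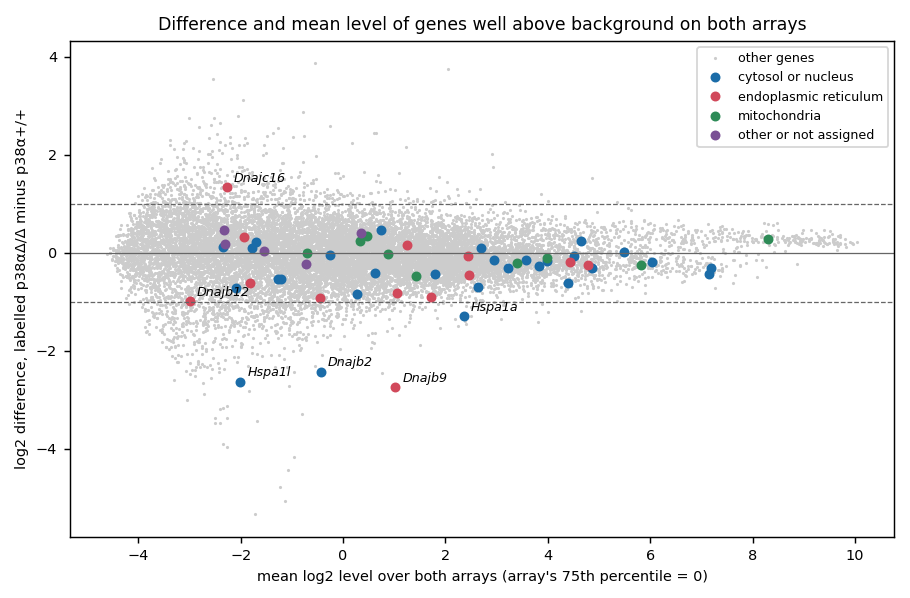
Log2 difference (*p38α*Δ/Δ-labelled array minus *p38α*+/+) against the mean log2 level of both arrays, for the 15643 genes well above background on both (grey) and the 56 such chaperone genes (coloured by the compartment of the protein), with dashed lines at a 2-fold difference. The chaperone genes sit mostly below 0, with *Dnajb9*, *Hspa1l*, *Dnajb2* and *Hspa1a* past 2-fold lower and *Dnajc16* past 2-fold higher.

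The lean to the lower side was described separately for bright and dim genes. Among genes with a mean level at or above the 75th percentile, 28 of 37 members (75.7%) lay below 0, against 58.1% of all such genes, with medians of -0.22 and -0.08. Among dimmer genes it was 11 of 19 members (57.9%), against 48.6%, with medians of -0.05 and 0.02. The arrays also differed in their brightest range, where the 133 genes with a mean level of 8 or more had a median difference of 0.25 and 4.51% lay below 0. *Dnajc19* was the one member there (0.27, and 0.013 with quantile normalization), and the part of that shift in its value was not tested.

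All 3 HSP90 genes lay below 0 by their brightest probes, 1 of them by over 2 spot SDs, though *Hsp90aa1* was above 0 with quantile normalization (0.061) and loess (0.034). Counts of this and the other families are to be read against all genes measured on both arrays. Of those, 53.2% lay below 0 and 30.5% were lower by over 2 spot SDs. *Hsp90ab1*, the constitutive cytosolic HSP90β, had a level of 7.34 on the *p38α*+/+ array and 7.02 on the other, a difference of -0.32 that exceeded 2 spot SDs. *Hsp90b1*, the ER form GRP94, had levels of 4.91 and 4.66. The difference of -0.25 lay within 2 spot SDs. *Hsp90aa1*, the inducible cytosolic HSP90α, read 4.54 and 4.48 with its brightest probe, a difference of -0.06 below the SD of a difference between spots. Its second, dimmer probe read -2.48 and -2.84, a difference of -0.36 that exceeded 2 spot SDs.

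The HSP70 and HSP110 families held 2 of the 4 largest decreases. Of their 13 genes, 12 were measured on both arrays, 11 of them lay below 0, 7 by over 2 spot SDs, and the median difference was -0.37. The 7 include *Hspa13*, whose brightest probe differed by -0.92 and whose second probe differed by 1.65. Among all genes measured on both arrays these shares were 53.2% and 30.5%, with a median of -0.04. *Hspa1a*, the classical stress-inducible cytosolic HSP70, had a level of 3.01 on the *p38α*+/+ array and 1.71 on the *p38α*Δ/Δ-labelled array, 2.45-fold lower. *Hspa1l*, an HSP70 gene best known from testis, had levels of -0.69 and -3.32, 6.18-fold lower. Both genes belong to the HSP70 cluster on chromosome 17, where their probes start 8512 bases apart. The *Hspa1a* probe is listed for *Hspa1b* as well, a near-identical copy with no probe of its own here, so the value reads both copies together. The probes are shown because they carry these decreases and lie in related stretches of both genes. Each line gives the first 30 of 60 bases, from chr17:35107117-35107176 (mm9, minus strand) and chr17:35115629-35115688 (mm9, plus strand).
*Hspa1a* probe: tgacaagaagaaggtgctggacaagtgcca
*Hspa1l* probe: gtccgataaaaataaaatactggataaatg
Laid over each other without gaps, the full probes matched at 42 of 57 bases (73.7%). Whether either transcript also bound the other probe was not tested.

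The promoter of *Hspa1a* is shown because HSF1 acts through heat shock elements, inverted repeats of GAA and TTC. In the RefSeq promoter windows (build GRCm38.p6, 250 bases before to 50 after a gene's start), 50 of the 63 genes were found. The 250 bases before the start of *Hspa1a*, chr17:34972157-34972406 on the minus strand, held the short form GAANNTTC once, in capitals.
*Hspa1a* promoter: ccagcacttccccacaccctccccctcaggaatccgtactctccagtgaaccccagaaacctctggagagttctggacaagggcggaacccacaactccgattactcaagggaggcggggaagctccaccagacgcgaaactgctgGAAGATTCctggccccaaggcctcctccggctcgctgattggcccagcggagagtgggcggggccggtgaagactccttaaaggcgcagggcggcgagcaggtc
That short form stood in 9.04% of the 27025 genes with a window, and in 9 of the 50 members (18.0%). The window of *Hspa1b* matched that of *Hspa1a* at 296 of 300 bases.

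The other inducible and constitutive HSP70 genes differed less. *Hspa8*, the constitutive Hsc70, had levels of 6.13 and 5.93 by its brightest probe, 5.53 and 5.37 by the next and 5.26 and 4.44 by the last. All 3 probes lay below 0, but only the last by more than 2 spot SDs (-0.82). *Hspa2*, an HSP70 of germ cells, had levels of 0.84 and 0.43, a difference of -0.41. *Hspa5*, the ER HSP70 known as BiP, had levels of 4.52 and 4.34, and *Hspa9*, the mitochondrial HSP70, 3.5 and 3.29. Their differences of -0.18 and -0.22 lay within 2 spot SDs, as did that of *Hspa14* (-0.22 and -0.27), a ribosome-associated HSP70. *Hspa12b*, a distant relative expressed in endothelium, was the one gene of these families above 0 by its brightest probe (0.15 and 0.55), but its second probe differed by -0.75, so no direction is given for it.

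The HSP110 proteins, which exchange the nucleotide of HSP70, were lower on the *p38α*Δ/Δ-labelled array by their brightest probes. *Hsph1* (HSP110 itself) had levels of 4.71 and 4.08, and its second probe read 2.48 and 1.75. These differences of -0.63 and -0.73 agree within the spot error of single probes. *Hspa4l* had levels of -1.72 and -2.45, a difference of -0.73. *Hspa4* had levels of 3.39 and 3.07 by its brightest probe (-0.32), while its other probes differed by -0.02 and 0.17. A heat shock element of 3 units, GAANNTTCNNGAA on either strand, stood just after the annotated start of *Hsph1*, within chr5:149636279-149636308 (GRCm38.p6, minus strand), in capitals.
*Hsph1* start: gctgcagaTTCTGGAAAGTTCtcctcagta

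*Hspd1* (HSP60) and *Hspe1* (HSP10), the mitochondrial chaperonin and its lid, are transcribed in opposite directions from a shared promoter. *Hspd1* had levels of 4.03 and 3.93, a difference of -0.10. *Hspe1* had levels of 5.96 and 5.70, a difference of -0.26, and its other probes differed by -0.06 and -0.20. None of these passed 2 spot SDs. Their promoter windows shared 285 bases, and the 250 bases before the start of *Hspe1*, chr1:55087898-55088147 (GRCm38.p6, plus strand), held 2 overlapping matches to the element of 3 units, which run together in capitals.
*Hspe1* promoter: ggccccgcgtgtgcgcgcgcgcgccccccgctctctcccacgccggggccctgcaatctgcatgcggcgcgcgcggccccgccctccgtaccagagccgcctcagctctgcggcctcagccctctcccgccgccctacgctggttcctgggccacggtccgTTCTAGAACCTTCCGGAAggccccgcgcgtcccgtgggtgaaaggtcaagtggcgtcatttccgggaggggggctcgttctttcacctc
The element of 3 units stood in 0.662% of all genes with a window and in 4 of 50 members (8.0%), namely *Hspd1*, *Hspe1*, *Hsph1* and *Dnajb6*. All 4 had brightest-probe differences below 0, from -0.63 to -0.10, and none of the 4 genes past 2-fold lower held it in its window. Among all genes measured on both arrays 53.2% lay below 0. The matches of *Hspd1* and *Hspe1* are the same bases read from either strand. Members without a window, among them *Hsp90aa1*, *Hsp90ab1* and *Hspa8*, were not searched.

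**Figure D2:**
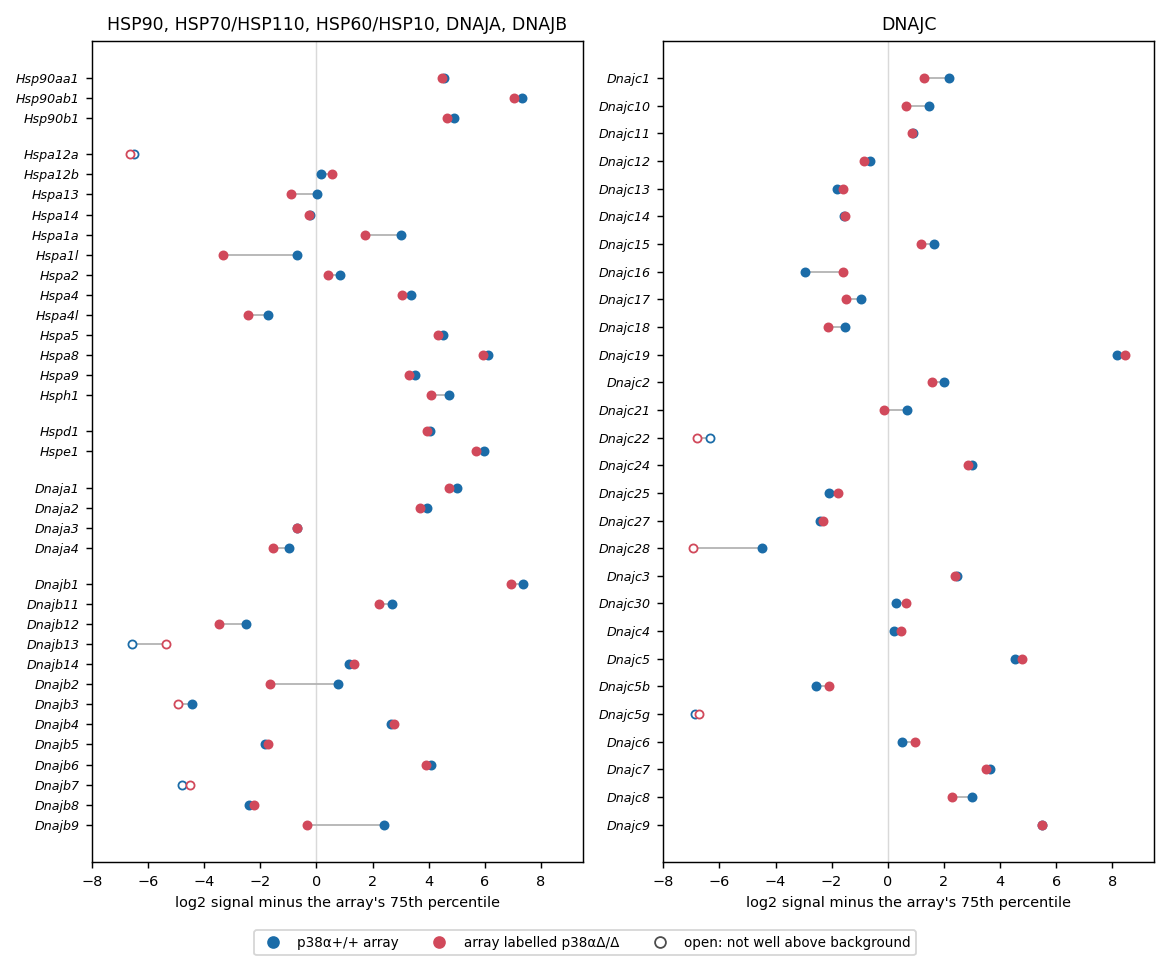
Log2 level of each of the 63 chaperone genes (brightest probe, relative to the array's 75th percentile) on the *p38α*+/+ array (blue) and the *p38α*Δ/Δ-labelled array (red), by family, with open circles where the probe was not well above background. Longer lines for *Dnajb9* (2.39 and -0.35), *Hspa1l*, *Dnajb2* and *Hspa1a* run to the left, and that of *Dnajc16* (-2.95 and -1.61) to the right. Positions of different probes do not rank the transcripts.

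DNAJA proteins are the class of J proteins closest to bacterial DnaJ. All 4 lay below 0 by their brightest probes, 2 of them by over 2 spot SDs, with a median difference of -0.29. The shares over all genes were 53.2% and 30.5%. *Dnaja4* had levels of -0.99 and -1.53, a difference of -0.54, and its second probe was well above background on the *p38α*+/+ array only (-3.10 and -5.76). *Dnaja1* had levels of 5.02 and 4.71 by its brightest probe, but its second probe read -1.15 and -0.67 and so went the other way by 0.48. *Dnaja2* had levels of 3.96 and 3.68, a difference of -0.27. *Dnaja3*, the mitochondrial form, read -0.70 and -0.71 and was level within spot error.

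Among the 13 DNAJB genes, 10 were measured on both arrays, 6 of these lay below 0 and 5 were lower by over 2 spot SDs. For all genes measured on both arrays these shares were 53.2% and 30.5%. *Dnajb9*, the ER J protein ERdj4 that helps to dispose of misfolded proteins and restrains the stress sensor IRE1, had the lowest difference of all members. Its brightest probe read 2.39 on the *p38α*+/+ array and -0.35 on the other, 6.69-fold lower. The second probe of the gene read 0.75 and 0.24, a difference of -0.51. Both probes were thus lower, by amounts that differed far beyond spot error. *Dnajb2*, a J protein that binds ubiquitin and is abundant in neurons, read 0.77 and -1.65 with its brightest probe, 5.38-fold lower, and -2.20 and -3.22 with its second, a difference of -1.02. The first 30 bases of these probes are shown since the size of the difference turned on the probe. They come from chr12:45308272-45308331 and chr12:45307313-45307372 (mm9, minus strand) for *Dnajb9*, and from chr1:75241802-75241861 and chr1:75240156-75240215 (mm9, plus strand) for *Dnajb2*, counted from bases 417, 1376, 1401 and 941 of the listed transcripts.
*Dnajb9* brightest probe: ttttaccaatggcaaaggacaaagaggcaa
*Dnajb9* second probe: ccgtagaattggtgtaatggggaagattgt
*Dnajb2* brightest probe: acttcttgctagactcgggttgaagtgagc
*Dnajb2* second probe: atctttctgaggatgaggacctgcagctcg

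The remaining DNAJB genes differed by less than 2-fold. *Dnajb12*, an ER membrane J protein, had levels of -2.50 and -3.49, a difference of -0.98. *Dnajb1*, the main cytosolic partner of HSP70 and a target of HSF1, had levels of 7.36 and 6.93, a difference of -0.44. *Dnajb11*, the ER J protein ERdj3, had levels of 2.69 and 2.22, a difference of -0.46. The highest differences of the family belonged to *Dnajb8* (-2.40 and -2.21), *Dnajb14* (1.18 and 1.34) and *Dnajb5* (-1.82 and -1.72), all within 2 spot SDs by the brightest probe, while the second probe of *Dnajb14* differed by 0.66. *Dnajb6*, which suppresses aggregation of polyglutamine proteins, read 4.06 and 3.89 with its brightest probe, whereas its other probes differed by 0.06, 0.96 and -0.38.

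DNAJC proteins share little beyond the J domain and act at particular places in the cell. Of 28 genes, 25 were measured on both arrays, 13 below 0 and 12 above it, with a median of -0.03. Beyond 2 spot SDs, 8 were lower and 5 higher. Of all genes measured on both arrays 53.2% lay below 0, with a median of -0.04. Beyond 2 spot SDs 30.5% of them were lower and 26.3% higher. The DNAJC counts below 0 and lower were thus close to the shares of the array as a whole. The largest decrease belonged to an ER member. *Dnajc1* (ERdj1) had levels of 2.17 and 1.27, a difference of -0.89. *Dnajc10*, the disulfide reductase ERdj5, read 1.47 and 0.64 with its brightest probe (-0.83) but 0.77 and 1.15 with its second. *Dnajc18*, an ER membrane protein, had levels of -1.52 and -2.13, a difference of -0.61. *Dnajc3* (p58IPK), an inhibitor of the stress kinase PERK and an ER co-chaperone, was level within spot error (2.48 and 2.41). *Dnajc16* (ERdj8) was the one member past 2-fold higher, with levels of -2.95 and -1.61, 2.53-fold higher by its only probe.

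Some DNAJC proteins act in the nucleus or at the ribosome. *Dnajc8*, a J protein of the spliceosome, had levels of 2.99 and 2.28, and its other probes read 1.77 and 1.23, and 0.64 and 0.17. All 3 probes were lower beyond 2 spot SDs, by -0.71, -0.54 and -0.47. *Dnajc17*, also of the spliceosome, had levels of -0.95 and -1.48. *Dnajc21*, which acts in ribosome biogenesis, read 0.69 and -0.15 (-0.83) and, with a second probe, -2.34 and -3.65, whereas the last was above background on the *p38α*Δ/Δ-labelled array alone (-5.62 and -3.44). With averaged probes its difference was 0.015. *Dnajc2*, the ribosome-bound partner of *Hspa14*, had levels of 2.01 and 1.58 by its brightest probe, and its second probe was above background on the *p38α*Δ/Δ-labelled array alone (-4.55 and -3.64). With averaged probes its difference was 0.24. *Dnajc9*, a histone chaperone, was level (5.49 and 5.50).

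Beside *Dnajc16*, the DNAJC genes higher by over 2 spot SDs were *Dnajc5b*, *Dnajc6*, *Dnajc25* and *Dnajc30*. *Dnajc6*, the clathrin-uncoating protein auxilin, had levels of 0.51 and 0.96, a difference of 0.46. *Dnajc5b*, a cysteine string protein of testis, had levels of -2.56 and -2.09, a difference of 0.46. *Dnajc30* (0.30 and 0.64) and *Dnajc25* (-2.10 and -1.77) were higher by 0.34 and 0.33. The second probe of *Dnajc25* read -2.20 and -2.26, a difference of -0.06, and with averaged probes the gene read 0.14, within 2 spot SDs. *Dnajc19*, a part of the motor that imports proteins into mitochondria, had levels of 8.17 and 8.44 by its brightest probe. Its other probes were far dimmer (1.00 and 0.76, and -0.58 and 0.18) and differed by -0.24 and 0.76. They are listed for another transcript than the brightest probe, and which probe reads the gene best was not determined. *Dnajc15*, the paralog of *Dnajc19*, was lower (1.66 and 1.18). *Dnajc11*, of the mitochondrial contact site, was the one member with repeated spots. Its 10 spots gave levels of 0.90 ± 0.04 and 0.86 ± 0.07 (SD over spots, n = 10), a difference of -0.03 within spot error.

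The genes not measured on both arrays were few. *Dnajb3* and *Dnajc28* passed the background limit on the *p38α*+/+ array alone, at levels of -4.44 and -4.47. Against the lowest signal well above background on the other array, they were at least 1.26-fold and 1.24-fold lower there. *Dnajb7*, *Dnajb13*, *Dnajc5g*, *Dnajc22* and *Hspa12a* stayed below that limit on both arrays, and no fold was computed for them. Most of these are known from testis or other tissues.

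Where a gene had several probes, they did not always go the same way. Over 1 probe was well above background on both arrays for 23 members. For 12 of these all such probes lay on the same side of 0, below it for 10 and above it for 2 (*Dnajb5* and *Dnajb14*). For 7 members, *Dnaja1*, *Dnajb6*, *Dnajc5*, *Dnajc10*, *Dnajc11*, *Hspa12b* and *Hspa13*, probes lay on opposite sides of 0, each by over 2 spot SDs. *Hspa13*, an HSP70-like protein of the ER, read 0.0076 and -0.91 with its brightest probe and -3.39 and -1.74 with the other, so that the signs were opposed. *Dnajc5*, the cysteine string protein of synaptic vesicles, read 4.54 and 4.77 with its brightest probe, while the others differed by -0.63, -2.43 and 0.84. *Hspa12b* read 0.40 higher with its brightest probe and -0.75 with its second. Counted by probe, 61 of 89 member probes (68.5%) lay below 0, against 55.0% of all named probes measured on both arrays, with medians of -0.22 and -0.06. The starts of the *Hspa13* probes, at chr16:75757223-75757282 and chr16:75755568-75755627 (mm9, minus strand), are given because the direction for this gene turned on the probe.
*Hspa13* brightest probe: ataaagctgtattactctctccatttgttt
*Hspa13* second probe: gaagagctagttcttatgtgaacagtttct
For the genes named with opposed probes no direction can be given beyond that of each probe.

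**Figure D3:**
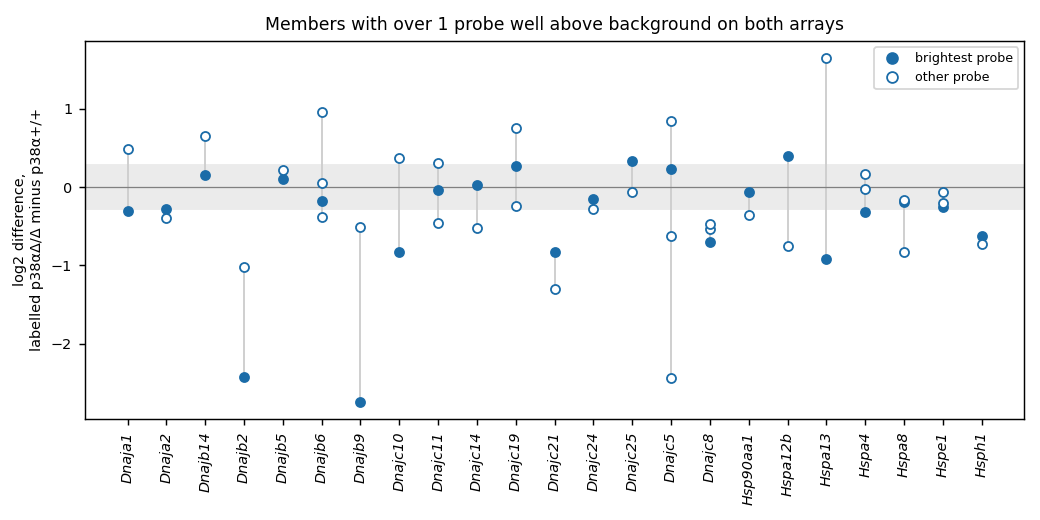
Log2 difference (*p38α*Δ/Δ-labelled array minus *p38α*+/+) of every probe well above background on both arrays, for the 23 chaperone genes with over 1 such probe, with the brightest probe filled and the grey band at 2 spot SDs (0.28) either side of 0. *Dnajb2*, *Dnajb9*, *Dnajc8* and *Hsph1* have all probes below the band, while *Hspa13* and *Dnajc5* have probes on both sides of it.

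By compartment, the medians of the cytosolic and nuclear members and of the ER members were lower than that of the mitochondrial members. Each of these groups had over 53.2% of its genes below 0, the share among all genes measured on both arrays. The members of other or unassigned places did not. Of the 5 measured on both arrays, 1 was below 0 and 4 above. Their median was 0.18, and 2 were higher by over 2 spot SDs. Of 29 cytosolic and nuclear members 22 were below 0 and 15 were lower by over 2 spot SDs, with a median of -0.31. Of 13 ER members 10 were below 0 and 7 were lower by over 2 spot SDs, with a median of -0.46. The 7 include *Dnajc10* and *Hspa13*, whose second probes lay above 0. Of 9 mitochondrial members measured on both arrays 6 were below 0 and 1, *Dnajc15*, was lower by over 2 spot SDs, with a median of -0.03 (-0.07 with *Dnajc28* at its bound). Among all genes measured on both arrays 30.5% were lower by over 2 spot SDs, with a median of -0.04. Whether the compartments differ was not tested. The ER median moved to -0.24 with normexp (a background correction that fits a model to spot and local background) and to -0.23 when the probes of a gene were averaged.

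Of the core targets of HSF1, a list that overlaps the chaperone genes, 16 of 17 were measured on both arrays. Of these, 10 were lower by over 2 spot SDs, against 30.5% of all genes, and the other 6 lay below 0 within that limit. All 16 were thus below 0, against 53.2% of all genes and 58.1% of bright ones, with a median of -0.37. *Dnaja1* was above 0 with averaged probes, and *Hsp90aa1* and *Hspd1* with quantile normalization (0.061 and 0.0092). The 6 that are not among the members described above had a median of -0.44. *Hspb1*, the small heat shock protein HSP27, had levels of 0.12 and -1.63, 3.36-fold lower. *Bag3*, which links HSP70 to autophagy, had levels of 0.83 and 0.34, and *Stip1*, the adaptor between HSP70 and HSP90, 4.80 and 4.34. *Chordc1* (2.19 and 1.77) and *Ahsa1* (4.88 and 4.61), which act on HSP90, had differences of -0.43 and -0.27, and that of *Cryab* (0.45 and 0.27) lay within 2 spot SDs. *Hsf1* itself had levels of 1.37 and 1.08, a difference of -0.29. Of the 4 genes for heat shock transcription factors and their binding partners measured on both arrays, 3 were lower (median -0.30), from *Hsf2* (-0.21 and -1.11) to *Hsf4* (-1.21 and -0.57). *Hsf5*, of germ cells, was well above background on the *p38α*+/+ array only (-1.23), at least 11.7-fold lower on the other.

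Of the genes of ER folding and of the unfolded protein response, apart from the ER members above, 20 of 22 listed were measured on both arrays. Of these, 9 were lower by over 2 spot SDs, against 30.5% of all genes, and the other 11 lay within that limit. Below 0 were 19 of the 20, against 53.2% of all genes, with a median of -0.23. *Hyou1*, the ER nucleotide exchange factor, had the largest difference (-1.08 and -2.39), and *Canx*, the lectin calnexin, the highest (4.78 and 4.80). *Sdf2l1*, a partner of the ER J proteins, had levels of 4.26 and 3.5, and *Manf*, secreted under ER stress, 4.23 and 3.61. *Xbp1*, a transcription factor of this response, was level within spot error (2.45 and 2.42). The ER stress response element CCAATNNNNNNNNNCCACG, searched on both strands, stood in 0.137% of the genes with a window and in 3 of 50 members (6.0%), *Hspa5*, *Hsp90b1* and *Dnajc3*. All 3 had differences between -0.25 and -0.07, within 2 spot SDs, whereas *Dnajb9*, the largest decrease, held no match in its window. The 250 bases before the starts of *Hspa5*, chr2:34771840-34772089 (plus strand), and *Hsp90b1*, chr10:86705445-86705694 (minus strand), both in GRCm38.p6, are shown with the element in capitals because these genes carry it.
*Hspa5* promoter: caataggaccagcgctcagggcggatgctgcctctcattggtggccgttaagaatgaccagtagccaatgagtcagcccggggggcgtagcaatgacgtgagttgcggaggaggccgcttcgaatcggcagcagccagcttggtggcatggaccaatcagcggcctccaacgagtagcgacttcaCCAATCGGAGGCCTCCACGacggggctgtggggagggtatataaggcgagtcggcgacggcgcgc
*Hsp90b1* promoter: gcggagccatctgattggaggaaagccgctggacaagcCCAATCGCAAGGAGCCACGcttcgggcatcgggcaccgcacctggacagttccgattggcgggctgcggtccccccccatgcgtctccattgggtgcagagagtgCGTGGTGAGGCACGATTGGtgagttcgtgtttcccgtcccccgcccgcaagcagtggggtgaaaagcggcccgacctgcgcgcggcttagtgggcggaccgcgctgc

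The chaperone systems that work beside HSP70 and HSP90 were described by the same measures, to be read against 53.2% of all genes below 0, or 58.1% of bright ones, and 30.5% lower by over 2 spot SDs. Of 15 subunits of the cytosolic chaperonin TRiC and of prefoldin, which pass actin and tubulin to their folded state, 13 were below 0 and 12 were lower by over 2 spot SDs, with a median of -0.46. They ranged from *Pfdn2* (1.94 and 0.81) to *Cct6b* (-2.62 and -1.10), a testis form of its subunit. *Cct7*, by contrast a subunit of every TRiC ring, had levels of 6.21 and 5.72. Of 11 nucleotide exchange factors of HSP70, 8 were below 0 and 5 lower by over 2 spot SDs (median -0.26), with *Hyou1* lowest and *Bag4* highest (-1.22 and -0.80). Of 23 co-chaperones of HSP90, 16 were below 0 and 10 lower by over 2 spot SDs (median -0.21), and *Ahsa2* was highest (-2.24 and -1.61). Of 14 mitochondrial folding factors and proteases, 10 were below 0 and 6 lower by over 2 spot SDs (median -0.15), from *Trap1*, the mitochondrial HSP90 (-0.08 and -0.81), to *Grpel2* (-0.56 and -0.15). Small heat shock proteins were split, with 3 of 7 below 0 and a median of 0.12. *Hspb1* and *Hspb8* (-2.31 and -4.00) were past 2-fold lower and *Cryaa* was highest (-4.04 and -3.31).

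**Figure D4:**
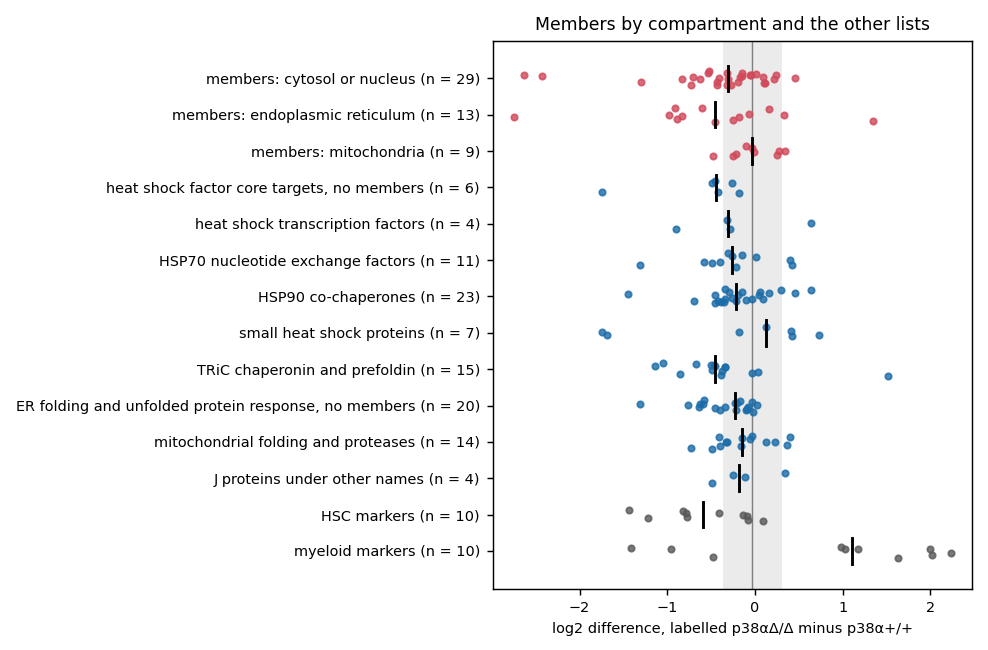
Log2 differences (*p38α*Δ/Δ-labelled array minus *p38α*+/+) of genes well above background on both arrays, for the members by compartment (red), the other chaperone and stress lists (blue) and the HSC and myeloid markers (grey), with black bars at medians and a grey band over the quartiles of all genes (-0.35 to 0.30). The medians of the HSC markers (-0.59), the ER members (-0.46) and TRiC and prefoldin (-0.46) lie left of that band. So does that of the core targets of HSF1 without the members (-0.44), and the myeloid median (1.1) lies far to its right. With averaged probes the HSC marker and ER medians (-0.22 and -0.23) fell inside the band, as did the ER median with normexp (-0.24).

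The shares were recomputed under other ways of processing. Over 10 alternatives, between 67.2% and 70.7% of members lay below 0, against 44.5% to 56.2% of all genes, and the median of the members ran from -0.22 to -0.14. *Dnajb2*, *Dnajb9* and *Hspa1a* were past 2-fold lower under all 10. *Hspa1l* was so under 9 and read -0.99 with normexp, and *Dnajc16* read 0.56 with normexp. Of the 29 members beyond 2 spot SDs on both arrays, 24 kept their side of 0 under all 10. The exceptions were *Dnaja1*, *Dnajc2*, *Dnajc21*, *Hspa12b* and *Hspa13*, each of which crossed 0 when the probes of a gene were averaged.

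**Figure D5:**
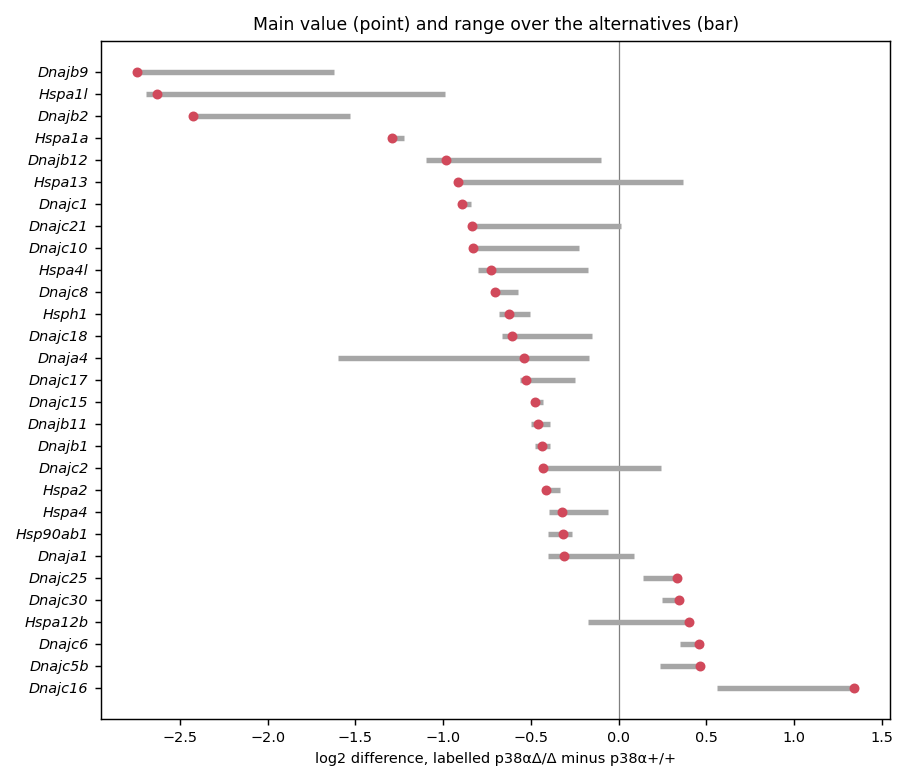
Log2 difference (*p38α*Δ/Δ-labelled array minus *p38α*+/+) of the 29 chaperone genes beyond 2 spot SDs on both arrays, with the value used in the text as a point and the range over 10 processing alternatives as a bar. *Hspa1a*, *Dnajc1* and *Dnajc8* have short bars away from 0, and 5 genes have bars that cross 0.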

How the data were processed

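The authors deposited the scanner intensity of every spot of each array, background-subtracted and detrended by Agilent Feature Extraction 11.5.1.1 per the labels and not normalized between arrays. A second file the authors deposited holds log2 values of 35795 probes after normalization, and each of its columns equals the log2 scanner signal minus a constant (7.16 and 6.84). The laboratory work and the normalization were outsourced, and the arrays shared a slide. From the intensities, control and outlier spots were left out, which kept 55662 of 55681 probes. Log2 signals were averaged over spots and set to each array's 75th percentile, and a signal not well above background was lifted, where needed, to the lowest one that was. A probe was well above background where the scanner software called at least 50% of its spots so. Names came from the array design or, through accessions and older symbols, from RefSeq, and promoter sequences from RefSeq (GRCm38.p6). Probe coordinates are those of the design (mm9), for which no annotation was used here, so exons and UTRs are not given. Genes were named by rule: all members of the HSP families, the core targets, the extremes of each DNAJ family and list, members past 2-fold or on 1 array only, and members with opposed probes. Other named genes, such as *Dnajc3*, *Dnajc9*, *Sdf2l1*, *Manf*, *Xbp1* and *Cct7*, were chosen after their values were seen. A few genes of the lists that this rule takes are not reported here. Members, lists and rules were chosen with earlier results of these data known. The number of arrays limits the precision. Calculations were tested on simulated data. The alternatives were quantile normalization, median centring, loess (span 0.3), normexp (offset 50), the authors' values, 2 other filters, no floor, averaged probes and outlier spots kept. The tools were limma 3.58.1 in R 4.3.3, and statsmodels 0.14.6, pandas 2.3.3 and numpy 2.4.6 in Python 3.11.15.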

Additional observations from a re-analysis of the deposited data

How the results depend on the processing

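The count of members past 2-fold lower was 4 and ran from 3 to 5 over the 10 alternatives. The count past 2-fold higher was 1, but 0 with normexp and 2 without a filter and floor, where *Dnajb13*, dim on both arrays, was added. The medians of all members, of cytosolic and nuclear members, of mitochondrial members and of the core targets moved by less than the SD of a difference between spots. The ER median of -0.46 moved to -0.24 with normexp and to -0.23 with averaged probes. With averaged probes *Dnaja1* read 0.086, *Dnajc2* 0.24, *Dnajc21* 0.015, *Hspa12b* -0.17 and *Hspa13* 0.37, all on the other side of 0, because their probes disagree. The medians of the other lists were recomputed after the data had been seen. With normexp, HSC markers read -0.36, myeloid markers 0.78, B and plasma cell markers 0.27 and immediate early genes 0.011. With averaged probes, HSC markers read -0.22. B and plasma cell markers (0.66 with bounds) read 0.50 with loess, 0.88 with the authors' values and with genes on both arrays only, and 1.71 without a floor, with or without the filter. Small heat shock proteins (0.26 with bounds) read 0.12 with the authors' values and with genes on both arrays only, and -0.18 without a filter and floor. The causes of the other shifts were not tested. No paired analysis was possible because each group has 1 array, and for the same reason no replicate could be left out. Of 60 single genes, averaged probes reversed 5 and moved 12 more by over the SD of a difference between spots, normexp moved 14 and quantile normalization 1. Signal over background left 5 of 63 members without a value.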

Other observations

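Immediate early genes, which respond within minutes to stress and to cell handling, were split between the arrays. Of 17 measured on both arrays, 10 were below 0, against 53.2% of all genes, with a median of -0.13. *Ier3*, an early gene of stress and survival signalling, had levels of 1.48 and -0.34, 3.52-fold lower on the *p38α*Δ/Δ-labelled array, and *Egr2*, a zinc finger factor, had the highest difference (-3.37 and -2.79). Of 4 J proteins that carry other names, 3 were below 0 (median -0.18), and *Hscb*, of iron-sulfur cluster assembly, was lowest (1.81 and 1.32). Markers of other lineages measured on both arrays had medians of 0.26 for 4 erythroid genes (*Hba-a1* lowest and *Klf1* highest), 0.67 for 2 T and NK cell genes (*Nkg7* and *Cd3e*), 0.39 for 5 megakaryocyte genes (*Itga2b* lowest and *Ppbp* highest) and 0.28 for 3 endothelial and stromal genes (*Cxcl12* lowest and *Lepr* highest).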
